A study of Mus musculus with 2 samples.

Results

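The matrix metalloproteinases and their inhibitors are covered here by 7 of the 27998 genes in the deposited tables, picked by symbol, with earlier results of these data known. They are the tissue inhibitors of metalloproteinases Timp1, Timp2 and Timp3, the metalloproteinases Mmp2, Mmp3 and Mmp14, and the related protease Adamts1. Lung cells sorted as CD45-, that is without the surface protein of leukocytes, were taken from mice 7 days after intravenous injection of labelling 4T1 cells. 4T1 is a mammary tumour line of the mouse that seeds the lung, and its labelling version is known for releasing an mCherry protein that cells nearby take up. Both groups, Cherry_Positive and Cherry_Negative, came from such lungs and were 1 library each, so no lung without tumour cells enters any comparison. The labels used here give no strain, age or number of mice, do not say whether lungs were pooled, and do not say whether these mice were irradiated. With 1 library per group there are no replicates and no p-values, and each difference below is one between these 2 libraries. All intervals are 95% and cover counting error only, since cells of a library are not independent samples.

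After filtering, 1766 Cherry_Positive and 2804 Cherry_Negative cells remained, with a median of 4348 and 3000.5 UMIs, the counts of single RNA molecules. Clustering with the 7 genes and the wider lists kept out gave 23 clusters in 16 classes, each named for the cell type it resembles by marker genes. Alveolar fibroblast-like cells numbered 870 in the Cherry_Positive library and 468 in the Cherry_Negative one, and general capillary-like cells 121 and 907. Carcinoma-like cells were 129 against 10, and had none of their class markers among their 10 leading genes. The mCherry gate itself can set such shares, and they are not compared further. Immune cells, which the CD45- sort should lack, made up 1.87% and 1.03% of the libraries. The doublet caller marked 4 and 7 cells, under 0.5% of each library, so doublets were in effect not removed. The libraries share 13 cell barcodes, and every call of the 7 genes was the same without them. Markers of AT2 cells, the surfactant-making cells of the alveolus, summed to between 164 and 217 CPM in the 6 compared classes of the Cherry_Positive library and to between 1658 and 2422 CPM in those of the Cherry_Negative library. CPM is the UMIs of a gene per 1000000 UMIs of the class, and since the 3' method counts transcript ends, gene length does not enter it.

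Matrix metalloproteinases are zinc enzymes that cut collagens, proteoglycans and other parts of the extracellular matrix. They are made as inactive precursors, are activated by other proteases at or near the cell surface, and are blocked by TIMPs, which bind the active site. Timp1 inhibits mainly the secreted enzymes, Timp2 also takes part with Mmp14 in activating pro-Mmp2, and Timp3 is held in the matrix and blocks ADAM and ADAMTS proteases as well. In the lung, fibroblasts are known as a main source of these transcripts.

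The genes lie apart in the mouse genome (GRCm38, GENCODE M21). Timp1 is at chrX:20870166-20874735 on the plus strand, inside Syn1 on the minus strand, and Timp3 is at chr10:86300372-86349506 on the plus strand, inside Syn3 on the minus strand. Timp2, at chr11:118301069-118355740 on the minus strand, overlaps Cep295nl on the same strand. Mmp2 (chr8:92827291-92853420), Mmp3 (chr9:7445822-7455975) and Mmp14 (chr14:54431612-54445364) are on the plus strand and Adamts1 (chr16:85793827-85803113) on the minus strand, with no overlapping gene. The strand setting of the counting is not given in the sources used here.

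Promoters in RefSeq (GRCm38.p6) were matched for 6 of the 7 genes, all but Mmp2. The 250 bases before the start of 3 of them are shown, 5′ to 3′, because Timp1 and Mmp3 are the genes that met the 2-fold rule in alveolar fibroblast-like cells and Adamts1 is the one called higher in 1 class and lower in another. Capitals mark matches to the AP-1 motif TGANTCA, the STAT motif TTCNNNGAA and TATAAA, searched on both strands.
Timp1, chrX:20869916-20870165, plus strand: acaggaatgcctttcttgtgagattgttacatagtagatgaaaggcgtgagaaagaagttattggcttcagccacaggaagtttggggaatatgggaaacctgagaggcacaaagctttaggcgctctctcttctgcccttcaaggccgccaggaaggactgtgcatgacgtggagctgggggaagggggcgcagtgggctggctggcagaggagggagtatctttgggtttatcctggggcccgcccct
Mmp3, chr9:7445572-7445821, plus strand: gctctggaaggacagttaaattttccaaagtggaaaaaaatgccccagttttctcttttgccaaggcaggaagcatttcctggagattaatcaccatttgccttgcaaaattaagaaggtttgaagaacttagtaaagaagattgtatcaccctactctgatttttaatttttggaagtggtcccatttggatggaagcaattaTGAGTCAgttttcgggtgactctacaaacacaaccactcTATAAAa
Adamts1, chr16:85803114-85803363, minus strand: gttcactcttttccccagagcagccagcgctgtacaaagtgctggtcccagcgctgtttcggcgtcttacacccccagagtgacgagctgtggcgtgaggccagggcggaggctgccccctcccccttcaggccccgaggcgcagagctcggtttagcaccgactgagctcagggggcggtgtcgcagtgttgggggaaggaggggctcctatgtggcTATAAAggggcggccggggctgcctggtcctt

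Counting back from the base before the start as -1, the Mmp3 window held TGAGTCA at -46 to -40, which no window of the other 5 genes held, and TATAAA at -7 to -2. The AP-1 motif occurred in 6.75% of the 32851 windows of all promoters and TATAAA in 12.4%. Adamts1 had TATAAA at -32 to -27. Of the motifs searched, Timp1 matched only the GC box GGGCGG, on the minus strand at -8 to -3, a motif found in 32.7% of all windows. The same search found no match to the STAT motif (7.02% of all windows), the NF-kB motif (7.25%), the ISRE core motif (2.98%) or the ETS motif CCGGAAG (6.91%) in any of the 6 windows. The Mmp3 window was also poorer in G and C, 37.6%, than those of Timp1 at 54.4% and Adamts1 at 65.6%. These are matches of letters, and nothing in the data measures binding at them.

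Mesenchymal cells, the fibroblasts, myofibroblasts, pericytes and smooth muscle, held most UMIs of all 7 genes in the Cherry_Positive library, from 78.0% for Timp3 to 97.9% for Mmp2. In the Cherry_Negative library, where mesenchymal cells were a smaller part of the cells, they still held 83.1% of Timp1, 93.2% of Mmp2 and 89.4% of Mmp3 UMIs. The other genes were spread more widely there. Endothelial cells held 40.5% of Timp2, 34.5% of Timp3, 27.0% of Mmp14 and 44.0% of Adamts1 UMIs. Such shares depend on how many cells of each lineage a library held, so a large share is not by itself a high level. Alveolar fibroblast-like cells alone were 49.3% of the Cherry_Positive and 16.7% of the Cherry_Negative cells. General capillary-like and Car4 capillary-like cells were 6.85% and 4.59% of the Cherry_Positive cells, and 32.3% and 10.8% of the Cherry_Negative ones. The plot of UMIs by lineage sets Timp1, Mmp2 and Mmp3 apart from the other 4 genes, most clearly in the Cherry_Negative library. It does not scale the shares by the cells of each lineage.

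**Figure D1:**
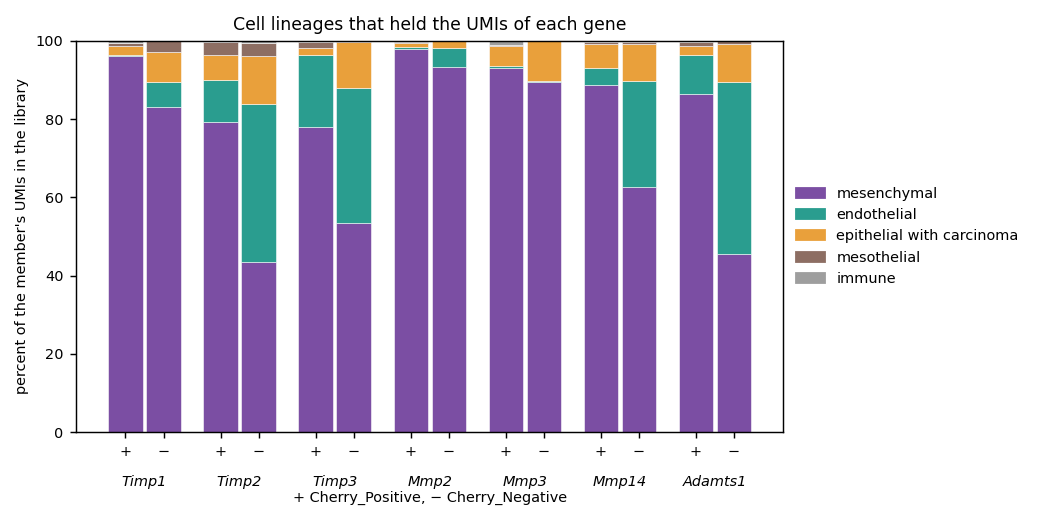
Percent of each gene's UMIs held by each lineage (vertical axis, 0 to 100), with a bar for the Cherry_Positive (+) and one for the Cherry_Negative (−) library per gene. Mesenchymal cells hold 83.1% to 97.9% of the Timp1, Mmp2 and Mmp3 UMIs in both libraries, while endothelial cells hold 40.5% of the Timp2 and 44.0% of the Adamts1 UMIs in the Cherry_Negative library. The shares also depend on how many cells of each lineage a library held.

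Of the 7 genes, the inhibitor Timp1 differed most between the libraries in fibroblasts. Its level in alveolar fibroblast-like cells was 2183 CPM (2140 to 2226, 10015 UMIs) in the Cherry_Positive and 235 CPM (211 to 260, 376 UMIs) in the Cherry_Negative library. That is a 9.31-fold difference (8.39 to 10.3). A gene is called here when its ratio is at least 2 or at most 1/2 and it has at least 30 UMIs over both libraries in the class. In alveolar fibroblast-like cells 2 of the 7 genes, Timp1 and Mmp3, were called higher and none lower, and over all 9658 genes tested 5.93% were called higher and 6.92% lower.

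Timp1 was called higher in 5 of the 6 compared classes, which had at least 50 cells in each library. The adventitial fibroblast-like class, named for fibroblasts of the sheath around vessels and bronchi, had 1371 CPM against 337 CPM, 4.07-fold (3.48 to 4.78). In its Cherry_Positive cells 1 cell held 339 of the 1149 Timp1 UMIs. Without the highest cell in each library the ratio was 3.138, below that interval. Myofibroblast-like cells had 975 CPM against 207 CPM, 4.72-fold (3.73 to 6.04), with 244 of the 1217 Cherry_Positive UMIs in 1 cell. Their ratio was 5.382 without the highest cell in each library. With each cell drawn down to 2000 UMIs it was 3.009, below the interval. Among pericyte-like cells, which sit on capillaries, the level was 298 CPM from 69 UMIs against 22.7 CPM from 3 UMIs, a ratio of 13.1 (4.30 to 65.1), and 1 cell held 50.7% of the Cherry_Positive UMIs. Clustering each library on its own gave a ratio of 6.489. It was 19.3 without the cell highest in Timp1 in each library, which left 1 of the 3 Cherry_Negative UMIs. Pericyte-like cells also differed in markers of another lineage: the 5 shared endothelial markers summed to 90.6 CPM in the Cherry_Positive and 1574 CPM in the Cherry_Negative library, with 1 of the 5, Tie1, at 0 in the former. Whether this has a part in the pericyte ratios was not tested.

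In general capillary-like cells, Timp1 was far lower than in fibroblasts. It stood at 73.7 CPM from 34 UMIs in the Cherry_Positive and 8.61 CPM from 21 UMIs in the Cherry_Negative library, a ratio of 8.56 (4.83 to 15.5). These levels were 5.60% (3.88 to 7.82) and 12.7% (7.88 to 19.5) of the gene's level in the whole library. As a reference for free RNA, 11 fibroblast genes summed to 7.15% of their library level in the same Cherry_Positive cells, and 10.8% in the Cherry_Negative ones. The median of the 11 single genes was lower, 3.35% and 2.64%, and the highest single gene stood at 291% and 196%. Timp1 in AT2-like cells stood at 5.48% (2.92 to 9.36) of its library level in the Cherry_Positive library, from 13 UMIs of which 11 were in 1 cell, and at 3.19% (1.38 to 6.28) in the Cherry_Negative one. With 5% of free RNA of the whole library's profile subtracted, the ratio was 1.504 and no longer called. In Car4 capillary-like cells, the large flat capillary cells of the alveolus, both libraries had 9 Timp1 UMIs, too few to be tested.

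Shares of cells with Timp1 differed between the libraries as its levels did. Of alveolar fibroblast-like cells 82.0% had at least 1 Timp1 UMI in the Cherry_Positive library and 23.1% in the Cherry_Negative one, at median depths of 4511 and 3127.5 UMIs. Thinned to 2000 UMIs per cell, with 18 and 62 shallower cells left out, these shares were 71.7% and 18.7%. In AT2-like cells, 13.6% of 22 Cherry_Positive and 1.56% of 448 Cherry_Negative cells had a Timp1 UMI, at median depths of 6844 and 8154. The UMIs were unevenly spread over cells. The top 10% of alveolar fibroblast-like cells held 56.4% of their Timp1 UMIs in the Cherry_Positive library, where the median cell had 4 and the highest 354, and 83.0% in the Cherry_Negative library, where the median cell had 0 and the highest 41.

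**Figure D2:**
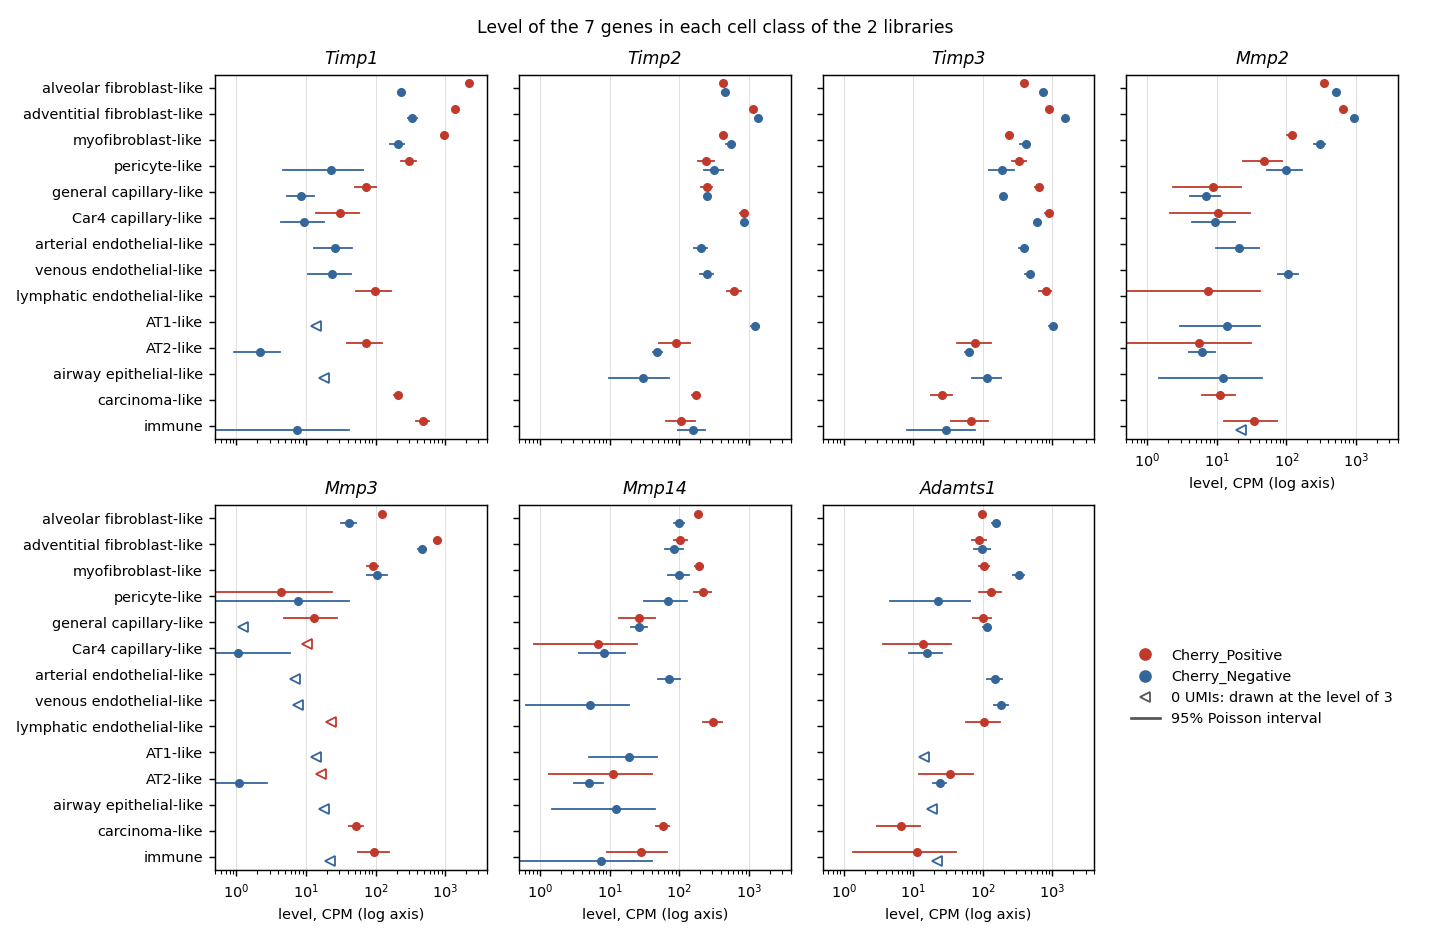
Level of each of the 7 genes (horizontal log axis, CPM) in every class with at least 20 cells in the library, with 95% Poisson intervals cut at the left edge of the axis and open triangles for 0 UMIs. Timp1 separates the libraries in the fibroblast classes, from 2183 against 235 CPM in alveolar fibroblast-like cells, while Timp2 lies at almost the same level in both libraries in most classes.

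Timp2, which both blocks metalloproteinases and helps Mmp14 activate pro-Mmp2, was called in none of the 6 classes. Its level in alveolar fibroblast-like cells was 419.8 CPM (401 to 439) against 448 CPM (416 to 482), a ratio of 0.937. Its ratio was 0.849 (0.771 to 0.936) in adventitial fibroblast-like and 0.764 (0.648 to 0.904) in myofibroblast-like cells, and the intervals held 1 at 0.773 in pericyte-like, 0.980 in general capillary-like and 0.990 in Car4 capillary-like cells. Its level differed far more between classes than between libraries. In the Cherry_Negative library it was highest in adventitial fibroblast-like cells with 1358 CPM (1262 to 1459) and in AT1-like cells, the flat gas-exchange cells of the alveolus, with 1225 CPM (1080 to 1382), 2 levels whose intervals overlap. Car4 capillary-like cells followed with 859 CPM (801 to 919.6), general capillary-like cells had 252 CPM (233 to 273), and AT2-like cells had 48.5 CPM (41.7 to 56.1). The Cherry_Positive library had the same leading classes where both could be measured, with 1153 CPM in adventitial fibroblast-like and 850.1 CPM in Car4 capillary-like cells. Mesothelial-like cells had 1535 and 1951 CPM, from only 11 and 12 cells.

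Timp3, the inhibitor bound to the matrix, went in opposite directions in fibroblasts and in capillary cells. In alveolar fibroblast-like cells it was lower in the Cherry_Positive library, 386 CPM (368 to 405) against 722 CPM (681 to 765), 1.87-fold lower, and so not called. The same direction was seen in adventitial fibroblast-like cells, 905 against 1504 CPM and 1.66-fold lower, and in myofibroblast-like cells, 239 against 411 CPM and 1.72-fold lower. In general capillary-like cells it was 633 CPM (563 to 710.1) against 197 CPM (180 to 215), 3.22-fold higher (2.77 to 3.73). In Car4 capillary-like cells it was 888 against 602 CPM, 1.48-fold higher (1.27 to 1.71), and in pericyte-like cells 332 against 189 CPM, 1.76-fold higher (1.11 to 2.88). Neither of these reached the 2-fold rule. With Timp1, Timp3 made 2 of 5 tested genes called higher in general capillary-like cells, where 2.54% of all 7648 genes tested were called higher and 6.21% lower. In Car4 capillary-like cells 2 genes could be tested and none was called, against 1.37% of all genes called higher and 3.5% lower.

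Timp3 was also high in endothelial and AT1-like cells, where Timp1 was low. In the Cherry_Negative library it stood at 1013 CPM (883 to 1158) in AT1-like, 472 CPM in venous and 388 CPM in arterial endothelial-like cells. Timp1 had 23.3 and 25.7 CPM in the venous and arterial cells there. It had 0 UMIs in the 57 AT1-like cells, where the upper end of the interval was 17.3 CPM. In the Cherry_Positive library the Timp3 levels of adventitial fibroblast-like, Car4 capillary-like and lymphatic endothelial-like cells, 905, 888 and 796 CPM, had overlapping intervals from each to the next. The lymphatic value rests on 23 cells.

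The gelatinase Mmp2 was the most fibroblast-bound of the proteases and was lower in the Cherry_Positive library in all 3 fibroblast classes. Alveolar fibroblast-like cells had 343 CPM (326 to 360.2) against 507 CPM (473 to 543), a ratio of 0.676, and adventitial fibroblast-like cells 647 against 932 CPM, a ratio of 0.694. Neither was called. Myofibroblast-like cells had 119 CPM (100 to 139) against 300.4 CPM (247 to 362), 2.53-fold lower (1.96 to 3.27), and were called. The 8 markers of the myofibroblast class summed to 2877 CPM in these Cherry_Positive cells against 6034 CPM, and the 9 adventitial fibroblast markers to 3596 against 1811 CPM, most of it Dcn with 3411 against 1568 CPM. Their part in the Mmp2 and Adamts1 ratios of the class was not tested. In both libraries the order was adventitial, then alveolar fibroblast-like, then myofibroblast-like cells, with no overlap of the intervals. Venous endothelial-like cells of the Cherry_Negative library had 106 CPM (76.3 to 144), which was 78.6% (56.4 to 107) of the library level, and 29.3% of the 92 cells had a UMI. General capillary-like cells had 6.97 CPM there, 1.87% of cells.

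The stromelysin Mmp3, which cuts many matrix proteins and activates other pro-metalloproteinases, was found in few cells at high counts. In alveolar fibroblast-like cells it was 124 CPM (114 to 135, 570 UMIs) against 41.8 CPM (32.4 to 53.1, 67 UMIs), 2.97-fold higher (2.30 to 3.89). Only 11.8% of Cherry_Positive and 4.70% of Cherry_Negative cells of the class had a UMI, and the top 10% of the Cherry_Positive cells held 97.2% of its UMIs, up to 105 in 1 cell. Adventitial fibroblast-like cells had the highest level in both libraries, 759 CPM (701 to 820) and 464 CPM (409 to 525), a ratio of 1.63 (1.41 to 1.90) that was not called. As the mean over cells of each cell's own CPM, this ratio was 1.007. Myofibroblast-like cells had 91.4 and 105 CPM, and the ratio of 0.872 (0.599 to 1.29) did not differ from 1 beyond counting error. With Timp1 the only gene called, adventitial fibroblast-like cells had 1 of 7 called higher and none lower, against 3.18% of all 5153 genes higher and 3.05% lower.

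Outside the mesenchyme Mmp3 was at 52.9 CPM (41.4 to 66.7) in 129 carcinoma-like cells of the Cherry_Positive library, where 16.3% of cells had a UMI, and at 96.2 CPM in 33 immune cells, 17 UMIs in 4 cells. Of the 17 UMIs in immune cells, 82.4% were in 1 cell. In the Cherry_Negative library only 10 cells were carcinoma-like, and they held 38 Mmp3 UMIs, 9.41% of that library's. The Cherry_Negative library had 0 Mmp3 UMIs in 907 general capillary-like and 0 in 137 arterial endothelial-like cells. The upper ends of these intervals were 1.51 and 8.62 CPM. The Cherry_Positive library had 6 UMIs in general capillary-like cells, 5 of them in 1 cell.

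Mmp14, the membrane-anchored enzyme that activates pro-Mmp2, had ratios over 1 in 4 of the 5 classes where it could be tested, with the interval clear of 1 in 3 of them. Pericyte-like cells had 219.9 CPM (164 to 289, 51 UMIs) against 68.1 CPM (31.1 to 129, 9 UMIs), 3.23-fold higher (1.57 to 7.46), and were called. Myofibroblast-like cells had 193 CPM (170 to 219) against 99.2 CPM (69.5 to 137), 1.95-fold (1.37 to 2.85), just under the rule. Alveolar fibroblast-like cells had 183 CPM (171 to 196) against 99.8 CPM (84.9 to 117), a ratio of 1.84. In adventitial fibroblast-like cells, 104 against 85.6 CPM, and in general capillary-like cells, 26.0 against 26.7 CPM, the ratio interval held 1. Unlike Mmp2 and Mmp3, Mmp14 was high in lymphatic endothelial-like cells, 308 CPM (221 to 418) in 23 Cherry_Positive cells, and in arterial endothelial-like cells, 72.4 CPM (49.2 to 103) in the Cherry_Negative library.

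Adamts1, a secreted protease that cuts proteoglycans such as versican, was lower in the Cherry_Positive library in myofibroblast-like cells and higher in pericyte-like cells. Myofibroblast-like cells had 104 CPM (87.0 to 124, 130 UMIs) against 331 CPM (274 to 396, 120 UMIs), 3.17-fold lower (2.46 to 4.10). Pericyte-like cells had 129 CPM (87.3 to 185, 30 UMIs) against 22.7 CPM (4.68 to 66.3, 3 UMIs), a ratio of 5.70 (1.77 to 29.2). It was 10.31 with a stricter cell filter and 3.873 as a mean of cell values. Elsewhere the libraries were closer, with 95.7 against 155 CPM in alveolar fibroblast-like cells, 1.62-fold lower in the Cherry_Positive library. The ratio intervals held 1 in adventitial fibroblast-like cells, at 89.5 and 98.3 CPM, and in general capillary-like cells, at 99.7 and 114 CPM. Myofibroblast-like cells thus had 1 of 7 genes called higher and 2 lower, against 6.44% and 5.71% of all 5500 genes, and pericyte-like cells 3 of 5 called higher and none lower, against 7.14% and 5.26% of all 2130 genes.

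Beside Adamts1 stand genes of the early response, which are known to be switched on by tissue dissociation. The 10 genes Fos, Fosb, Jun, Junb, Egr1, Ier2, Atf3, Zfp36, Hspa1a and Hspa1b, chosen after the values had been seen, summed to 14667 CPM in Cherry_Positive and 23952 CPM in Cherry_Negative myofibroblast-like cells. In alveolar fibroblast-like cells they summed to 13156 against 20011 CPM, and in pericyte-like cells to 8685 against 9248 CPM, with none of the 10 at 0 in any of these. In adventitial fibroblast-like cells, where the Adamts1 ratio was 0.910, they summed to 13516 against 17404 CPM. The sums were 6477 against 7093 CPM in general capillary-like and 10539 against 10799 CPM in Car4 capillary-like cells. The sum was thus lower in the Cherry_Positive library in all 6 compared classes, and its part in the Adamts1 ratios was not tested. Median mitochondrial shares were close in each class, 2.34% and 2.32% in myofibroblast-like cells.

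**Figure D3:**
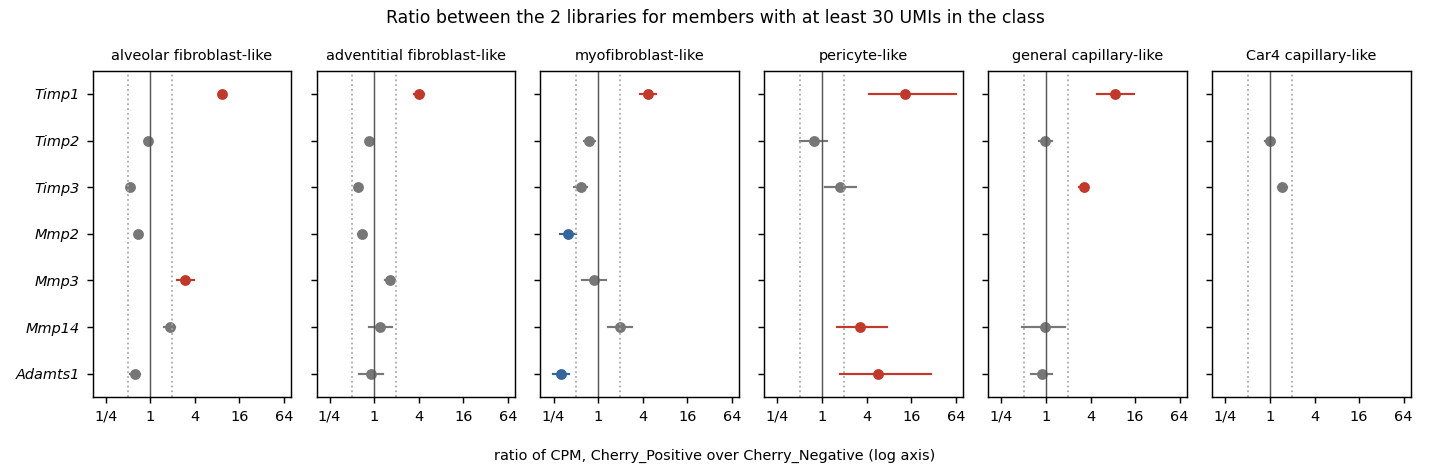
Ratio of the level in Cherry_Positive over Cherry_Negative cells (horizontal log axis) for each gene with at least 30 UMIs in the class, with 95% intervals. Dotted lines mark 1/2 and 2, and red and blue points were called higher and lower: Timp1 is right of 2 in 5 classes, and Adamts1 is at 0.315 in myofibroblast-like but 5.70 in pericyte-like cells.

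Over the 7 genes, the 11 called values were 9 higher and 2 lower among 33 tested, and most of the higher ones were Timp1. Of all genes tested, 1.37% to 7.14% were called higher and 3.05% to 6.92% lower, depending on the class. Summed over Timp1, Timp2 and Timp3, alveolar fibroblast-like cells had 2989 CPM of inhibitor transcripts in the Cherry_Positive and 1405 CPM in the Cherry_Negative library, 2.13-fold (2.03 to 2.23). The 4 proteases together were at 746 and 804 CPM, a ratio of 0.928 (0.870 to 0.990). There were thus 4.01 inhibitor UMIs per protease UMI against 1.75, and without Timp1 1.08 against 1.46, so the order of the libraries in this quotient depended on Timp1. Myofibroblast-like cells gave 3.22 against 1.40 with Timp1 and 1.30 against 1.15 without it. Adventitial fibroblast-like cells gave 2.15 against 2.02, and 1.29 against 1.81 without Timp1. In general capillary-like cells the quotient was 6.47 against 3.09 and changed little without Timp1, to 5.97 against 3.03. Car4 capillary-like cells had 57.6 and 42.4, with only 9 and 33 protease UMIs. Pericyte-like cells ran the other way, with 2.18 against 2.69 and, without Timp1, 1.44 against 2.58. Their proteases summed to 401 against 197 CPM, 2.04-fold (1.31 to 3.28). The pericyte quotients rest on few UMIs, 203 over 93 against 70 over 26. No interval was computed for any of these quotients, so small differences between them may lie within counting error.

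The alveolar fibroblast-like class held different clusters in the 2 libraries, and the levels of Timp1 and Mmp3 followed different ones. Cluster 2, led by the class markers Slc7a10, Tcf21 and Inmt, held 13.9% of the class in the Cherry_Positive library and 68.4% in the Cherry_Negative one. Cluster 6, led by Fam26f, the chemokines Cxcl10 and Ccl2 and the acute-phase gene Saa3, held 33.1% and 1.71%. Cluster 8, led by Tfpi2, Tnc and Wisp1, held 27.1% and 5.98%, and cluster 5, led by Tnfsf13b, Steap4 and C4b, held 25.6% and 20.1%. Clusters 6 and 8 had no marker of the class among their 10 leading genes, although 6 and 8 of its 8 markers were detected in them. In the class as a whole those 8 markers summed to 5551 CPM in the Cherry_Positive and 16427 CPM in the Cherry_Negative library. Timp1 itself was among the leading genes of cluster 6 and is described there, not tested.

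Timp1 was highest in cluster 6, with 3923 CPM (3830 to 4018) in 288 Cherry_Positive cells, and these cells, 16.3% of the library, held 52.3% of its Timp1 UMIs. Only 8 Cherry_Negative cells were in that cluster, with 854 CPM from 28 UMIs. In cluster 8 both libraries were high and close, 1490.3 CPM (1423 to 1560.3) and 1361 CPM (1121 to 1638), a ratio of 1.10 (0.904 to 1.34), although 1 of the 28 Cherry_Negative cells held 36.6% of the UMIs there. In cluster 5 the levels were 1114 and 305 CPM, a ratio of 3.65 (3.03 to 4.42), and in cluster 2 they were 272 and 111 CPM, a ratio of 2.46 (1.90 to 3.20). The ratio was thus above 2 within clusters 2 and 5 and not in cluster 8. Without cluster 6, the ratio of the class was 5.10, and without clusters 6 and 8 it was 5.43.

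Mmp3 was highest in cluster 5, which held 468 of the 570 Cherry_Positive and 56 of the 67 Cherry_Negative UMIs of the class. Its levels there were 409 CPM (373 to 448) in 223 Cherry_Positive and 136 CPM (103 to 176) in 94 Cherry_Negative cells, a ratio of 3.01 (2.28 to 4.05). In the Cherry_Positive library it was 39.3 CPM in cluster 6, 21.2 CPM in cluster 8 and 16.5 CPM in cluster 2. The cluster highest in Timp1 was therefore low in Mmp3. Without cluster 6, the ratio of Mmp3 in the class was 4.31, and without clusters 6 and 8 it was 7.10. Mmp2 was near equal in cluster 2, 445 against 475 CPM, and lower in the Cherry_Positive cells of clusters 5 and 8, with ratios of 0.829 (0.718 to 0.960) and 0.640 (0.446 to 0.946). Without clusters 6 and 8 its class ratio was 0.995, and that of Timp3 0.733. Timp3 was lower in the Cherry_Positive cells of cluster 5, 565 (522 to 610.1) against 1156 CPM (1055 to 1265), a ratio of 0.488 (0.433 to 0.551).

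In general capillary-like cells Timp3 was highest in 1 cluster, 13, which held 250 of its 292 Cherry_Positive and 236 of its 480 Cherry_Negative UMIs. Cluster 13, led by AA467197, Ido1 and Ubd, with interferon-inducible genes such as Gbp4 and Tgtp1 among its leading genes, had 1593 CPM (1402 to 1804) in 35 Cherry_Positive and 1227 CPM (1076 to 1394) in 71 Cherry_Negative cells, a ratio of 1.30 (1.08 to 1.56). This cluster had no marker of the class among its 10 leading genes, although 6 of the 6 markers were detected in it. Clusters 0 and 7 had 151 against 106 CPM and 125 against 113 CPM, and both ratio intervals held 1. Cluster 13 made up 28.9% of the class in the Cherry_Positive library and 7.83% in the Cherry_Negative one. Without it, the Timp3 ratio of the class was 1.27 and no longer called.

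**Figure D4:**
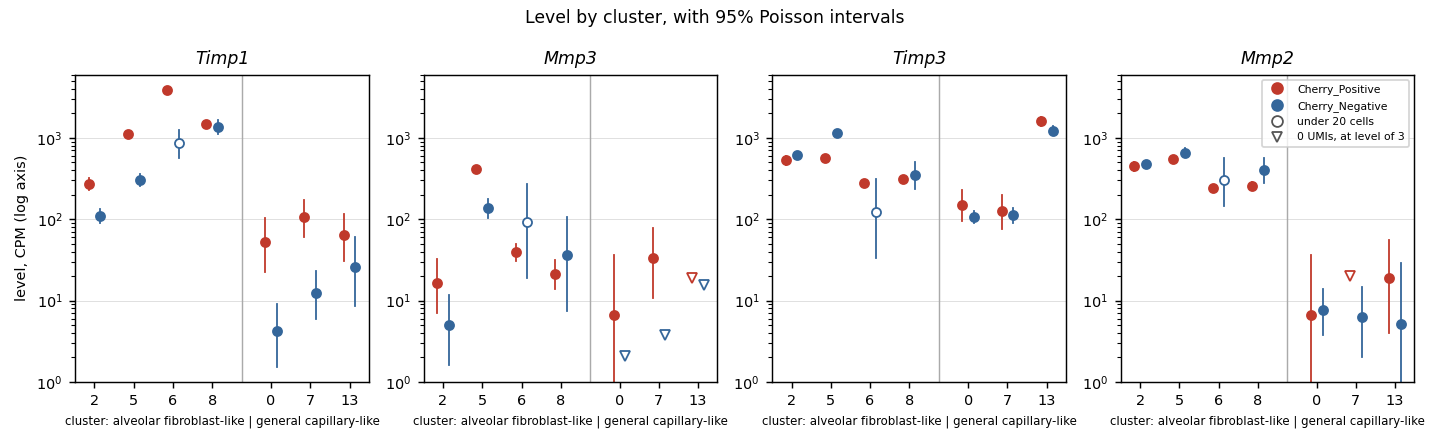
Level of Timp1, Mmp3, Timp3 and Mmp2 (vertical log axis, CPM) in 4 clusters of alveolar fibroblast-like and 3 of general capillary-like cells, with 95% Poisson intervals cut at the lower edge. Timp1 peaks in cluster 6 at 3923 CPM, Mmp3 in cluster 5 at 409 CPM, and among capillary clusters Timp3 stands out in cluster 13, at 1593 and 1227 CPM in the 2 libraries.

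In single alveolar fibroblast-like cells thinned to 2000 UMIs, Timp3 was found in a smaller share of cells with than without Timp1 in the Cherry_Positive library. The shares were 35.5% (31.7 to 39.5) of 611 cells with Timp1 and 51.0% (44.5 to 57.5) of 241 cells without it, and the intervals did not overlap. In the Cherry_Negative library they were 69.7% (58.1 to 79.8) of 76 and 63.6% (58.2 to 68.8) of 330 cells, with overlapping intervals. Mmp14 went the other way in Cherry_Positive cells, 26.4% (22.9 to 30.03) with Timp1 and 17.8% (13.2 to 23.3) without, and these intervals overlap by little. Adamts1 went as Timp3 did there, 12.4% (9.93 to 15.3) with Timp1 and 19.5% (14.7 to 25.1) without, again with little overlap. Mmp3 was in 8.51% of cells with and 6.22% of cells without Timp1, and the intervals overlap. By cluster, Timp3 was found in 28.7% of these Cherry_Positive cells in cluster 6, 31.1% in 8, 54.3% in 5 and 56.3% in 2. For Timp1 the shares were 89.0%, 76.3%, 69.2% and 26.9% in the same order. The part of the clusters in the shares with and without Timp1 was not tested. These shares describe cells of 1 library each, and cells are not replicates.

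Across the 22 points of a class in a library with at least 20 cells, levels on the log2(CPM + 10) scale gave Pearson correlations that are a description only, since points share their library and its free RNA. Among the 7 genes the highest were 0.824 between Timp1 and Mmp3, 0.806 between Mmp2 and Mmp3, and 0.802 between Timp2 and Timp3. Timp1 with Timp3 gave 0.179. Out of 6679 genes, those most like Timp1 were Mt2 (0.887), Cyp7b1 (0.881) and Mgp (0.871), and those most like Mmp3 were Cercam (0.947), Tnfaip6 (0.921) and Htra3 (0.921). For Mmp2 they were Gas1 (0.941), Cygb (0.929) and Adamts2 (0.915), for Timp2 Igfbp7 (0.872), Ctsl (0.856) and Vamp7 (0.847), and for Timp3 Laptm4a (0.882), Ctdsp2 (0.839) and Dusp1 (0.832). Mmp14 was closest to Lama4 (0.861), Fblim1 (0.860) and Cdc42ep5 (0.830), and Adamts1 to Maff (0.870), Gatad2b (0.828) and Palm (0.806).

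The wider protease system comprised 87 further genes in 8 lists. In alveolar fibroblast-like cells 46 of the 87 could be tested, and 15 were called higher, 4 lower and 27 neither. The median log2 ratio was 0.46 against -0.06 over all genes tested, of which 5.93% were called higher and 6.92% lower. Of the 4 plasminogen activation genes 2 could be tested and both were called higher: Plaur, the receptor of urokinase, at 70.8 against 11.9 CPM (5.98-fold), and Plat, tissue plasminogen activator, at 163 against 46.2 CPM (3.53-fold). Of 7 other protease inhibitors 4 could be tested, with 2 called higher, 1 lower and a median log2 ratio of 1.06. Reck, a membrane-anchored inhibitor of metalloproteinases, was lower, 11.3 against 26.2 CPM (2.31-fold lower).

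Other proteases of the family stood on both sides in these cells. Adamts4, an aggrecanase, was 5.03-fold higher, 47.1 against 9.36 CPM, while Adamts17 was 4.61-fold and Adamts9 2.82-fold lower. Of 17 ADAMTS genes 8 could be tested, and 1 was called higher and 2 lower. Of 20 further metalloproteinases only 4 had enough UMIs, with 2 called higher. Among substrates and receptors, Vcan, the proteoglycan versican, was 5.90-fold higher at 62.6 against 10.6 CPM, and Cd44, a cell-surface receptor of hyaluronan, 3.94-fold higher at 180 against 45.5 CPM. Of the cytokines and receptors 9 were tested, with 3 called higher and 1 lower. Lif was 6.58-fold higher at 73.9 against 11.2 CPM, Tgfb1 3.50-fold at 124 against 35.6 CPM, and the receptor Il6ra 2.83-fold lower at 19.8 against 56.1 CPM.

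The other classes had fewer genes that could be tested. In general capillary-like cells 6 of 29 tested genes were called higher and 1 lower, against 2.54% and 6.21% of all genes tested there. Cd63, a tetraspanin that binds Timp1, was 9.35-fold higher there at 215 against 23.0 CPM, with 30.3% of the Cherry_Positive UMIs in 1 cell. Bgn was 5.56-fold, Plau 2.25-fold, Adam9 2.01-fold higher, and Fn1 2.16-fold with an interval that held 1 (0.877 to 4.89). Adam19 was lower with 2 against 47 UMIs, a ratio of 0.225 (0.0265 to 0.859). In this class scaling by a trimmed mean shifted all log2 ratios by 0.12, and by less than 0.1 in the others.

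Adventitial fibroblast-like cells had 3 of 39 tested genes called higher, among them Plaur (3.28-fold) and Serpina3n (2.99-fold), and Mmp11 lower (2.29-fold). Over all genes tested in that class, 3.18% were called higher and 3.05% lower. Myofibroblast-like cells had 8 of 40 higher and 3 lower, against 6.44% and 5.71% of all genes. Fn1, fibronectin, was at 65.7 CPM against 5.51 CPM from 2 UMIs there, a ratio of 11.9 (3.20 to 100.1), Dcn, decorin, was 2.17-fold higher, and Adam33 was 10.3-fold lower at 12.0 against 124 CPM. Reck and Mmp11 were 2.63-fold and 2.13-fold lower, and the interval of Mmp11 held 1. Pericyte-like cells had Adam9 (2.85-fold), Nid1 (2.82-fold) and Plat (2.44-fold) among the 6 of 17 tested genes called higher, and none lower. The shares of all genes in pericyte-like cells were 7.14% and 5.26%. Car4 capillary-like cells had 2 of 23 called higher, Cd63 and Bgn (2.89-fold and 2.88-fold), and 2 lower, Mmp15 (2.89-fold) and Adamts10 (2.15-fold, with an interval that held 1). Of all genes tested in that class, 1.37% were called higher and 3.5% lower.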

How the data were processed

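Single cells were measured with the Chromium 3' method in 2 libraries, 1 per group. The authors deposited raw UMI counts per gene and cell; per the submitters' processing notes, Cell Ranger 2.1.1, the genome build mm10, Seurat 4.0.2 and R 4.0.3 were used, with no roles given. The libraries held 10094853 UMIs in 1826 barcodes (Cherry_Positive) and 11632459 UMIs in 2861 barcodes (Cherry_Negative).

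Barcodes were dropped below 500 detected genes or above a mitochondrial share of 10% (56 and 50), as were called doublets (4 and 7). Cells of both libraries were clustered together with scanpy 1.11.5 and leidenalg 0.10.2 (2000 variable genes without the 7 genes and the wider lists, 30 components, 15 neighbours, resolution 1, seed 0). A cluster was named for the marker list with the highest mean log2 fold, if at least 3 and at least 50% of its markers were detected and its 10 leading genes did not point to another lineage. The half-of-markers condition and leaving hemoglobin and immunoglobulin genes out of the leading genes were added after the clusters had been seen. Class names therefore are rebuilt here and are not the authors'.

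A gene's level is its UMI sum in a class of 1 library, scaled to 1000000 UMIs of that class (CPM). Intervals are exact (Poisson for levels, Clopper-Pearson binomial for shares and for ratios). In ratios and in figures a count of 0 was set to 3 UMIs. Comparisons used the 6 classes for which both libraries had 50 cells or more. The ratio intervals and calls were tried on simulated class sums, drawn as independent Poisson counts. Such counts lack the uneven spread over cells seen here, so that trial cannot show how well the intervals hold for such genes. From the wider lists, called genes were sorted within a class by whichever end of their interval lay closer to 1, and up to 8 each way were named in alveolar fibroblast-like and general capillary-like cells and up to 3 each way in the other classes; 1 gene that this rule names is not reported here.

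The 7 genes and all lists were chosen with earlier results of these data known. Python 3.11.15, numpy 2.4.6, scipy 1.17.1, pandas 2.3.3 and matplotlib 3.10.9 were used.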

Additional observations from a re-analysis of the deposited data

Results flagged for a closer look

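Adamts1 had ratios of Cherry_Positive over Cherry_Negative cells in opposite directions in different classes: 0.315 in myofibroblast-like cells, from 130 against 120 UMIs, and 5.698 in pericyte-like cells, from 30 against 3 UMIs. The difference between the classes was not tested, since each rests on 1 library per group.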

How the results depend on the processing

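With 1 library per group, the spread between mice is unknown, and counts of UMIs set the precision: pericyte-like cells were 63 and 51, and Timp1 and Adamts1 had 3 UMIs each in the Cherry_Negative ones. The 11 called ratios were recomputed under 143 alternative values, of which all kept their direction and 141 stayed past the 2-fold ratio. The exceptions were in general capillary-like cells: Timp1 at 1.504 with 5% free RNA subtracted (range 1.504 to 14.36), and Timp3 at 1.27 without cluster 13. Thinning kept the ratios of Timp1 there (5.745) and of Adamts1 in pericyte-like cells (7.525) but left 24 and 18 UMIs, under the minimum of 30, so they no longer count as called. Of 291 alternative values for the 22 ratios not called, 285 stayed uncalled. The others were Timp3 in myofibroblast-like cells, 0.4991 at resolution 2; Mmp14 there, 2.059 without the highest cell and 2.016 with trimmed mean scaling; and Timp3 in pericyte-like cells, 2.385 without the highest cell, 2.403 as a mean of cell values and 2.087 thinned.

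Leaving out clusters and shared barcodes was added after the data had been seen. In alveolar fibroblast-like cells, Timp1 was 5.10 without cluster 6 and 5.43 without clusters 6 and 8, and Mmp3 was 4.31 and 7.10. The count of genes called higher in general capillary-like cells was 1 with 5% free RNA subtracted, 1 thinned and 1 without cluster 13. In myofibroblast-like cells it was 2 without the highest cell, 2 with trimmed mean scaling and 2 at a ratio of 1.5. At 1.5, adventitial fibroblast-like cells had 2 higher and 1 lower (9.99% and 12.6% of all genes), alveolar fibroblast-like cells 3 and 2 (13.2% and 17.4%), myofibroblast-like cells 2 and 3 (15.2% and 17.4%) and pericyte-like cells 4 and 0 (14.6% and 16%). With no minimum of UMIs, 1 gene was called higher in Car4 capillary-like cells and 1 lower in pericyte-like cells. Mmp3 was then also called higher in general capillary-like cells, at 10.6 from 6 against 0 UMIs, with the 0 set to 3. Resolution 0.5 and separate clustering gave no myofibroblast-like values, the latter because 212 and 0 cells took that name. No paired analysis was possible because each group has 1 library and the replicate numbers carry no pairing.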
